A study of Mus musculus with 31 samples.

Results

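H19, Igf2 and 8 further imprinted genes (Igf2r, Cdkn1c, Peg3, Peg10, Mest, Plagl1, Grb10 and Ndn) were followed by RNA-seq through the conversion of mouse fibroblasts towards pluripotent cells. The genes were chosen by name as imprinted genes, with earlier results of these data known. They are 10 of 29267 gene identifiers in the deposited gene tables. All 10 were found, and all 10 were among the 14914 genes that passed the filter on low counts. The 31 libraries came from cells of the strain 129/OG2. Untreated mouse embryonic fibroblasts (MEF, passage 2) and embryonic stem cells (ESC, passages 17 and 19) had 2 libraries each. Cells under reprogramming by OKSM, the factor set of Pou5f1 (Oct4), Klf4, Sox2 and Myc, carried a Flag virus or a Tet1CD virus in addition and were kept with DMSO, Vc (vitamin C) or DKG for 3 or 8 days, which gave 12 groups of 2 libraries. Flag and DMSO are taken here as the control virus and the vehicle. The labels spell out neither DKG nor the content of the Tet1CD construct, and they give no dose. MEF without factors, kept for 3 days with DMSO, Vc or DKG, had 1 library each, and for the last of these the title names 2DG where the treatment field names DKG, so its compound is uncertain. Replicates of the MEF and reprogramming groups carry the numbers 0824 and 0826, and the ESC libraries the numbers 0822 and 0819. The labels do not state whether the libraries within a group derive from independent cultures. The p-values therefore reflect only how far those libraries differ, and that could be technical variation.

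An imprinted gene is transcribed mainly from the copy inherited from 1 parent, according to DNA methylation set in the germ line and kept through later divisions. H19, Igf2r, Cdkn1c and, in most tissues, Grb10 are known as maternally expressed, and Igf2, Peg3, Peg10, Mest, Plagl1 and Ndn as paternally expressed. Many of these genes act on growth. Igf2 is a secreted growth factor of the fetus, Igf2r takes it up for degradation, Grb10 dampens signalling by insulin and IGF receptors, and Cdkn1c (p57) halts the cell cycle. H19 is a long non-coding RNA that shares enhancers with Igf2 and is the precursor of a microRNA. The present libraries measure the total RNA of each gene, without the parental origin of the reads and without DNA methylation.

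Of the 10 genes, 5 lie on chromosome 7 (coordinates are of mm10, from GENCODE release M21). H19 (ENSMUSG00000000031, a lincRNA) spans chr7:142575529-142578143 and Igf2 (ENSMUSG00000048583) spans chr7:142650766-142666816, both on the minus strand. Cdkn1c lies at chr7:143458339-143461050, Peg3 at chr7:6703892-6730431 and Ndn at chr7:62346569-62350262. Peg10 (chr6:4747306-4760517) and Mest (chr6:30723547-30748465) share chromosome 6, and Plagl1 (chr10:13060504-13131694), Grb10 (chr11:11930508-12038683) and Igf2r (chr17:12682406-12769664) lie on 3 others.

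H19, Igf2 and Mest each contain a microRNA gene. The hairpin of miR-675 lies in an exon of 3 of the 7 annotated H19 transcripts, while miR-483 in Igf2 and miR-335 in Mest lie within the host gene but in no exon of its annotated transcripts. The mature sequences below are from RefSeq (GRCm38.p6), with the seed (bases 2 to 8), the part that pairs with targets, in capitals. The mature microRNAs themselves were not measured, and the level of a host RNA does not give theirs.
mmu-miR-675-5p (H19): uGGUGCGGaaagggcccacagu
mmu-miR-675-3p (H19): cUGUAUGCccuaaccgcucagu
mmu-miR-483-5p (Igf2): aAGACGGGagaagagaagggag
mmu-miR-483-3p (Igf2): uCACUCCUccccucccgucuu
mmu-miR-335-5p (Mest): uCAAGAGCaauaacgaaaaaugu
mmu-miR-335-3p (Mest): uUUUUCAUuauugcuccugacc
These 6 mature forms have 6 different seeds.

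Promoter windows of 300 bases (250 before to 50 after a start site, RefSeq, GRCm38.p6) were matched for 7 of the 10 genes. H19, Cdkn1c and Peg10 are named only. The windows were searched on both strands for TGCCGC, the letters that ZFP57, a zinc finger protein that guards methylated imprints, is known to read. Of 32851 windows of this length, 11.6% held a match, and of the 13 windows of the 7 genes, 5 did. Of these 5, 2 are Mest windows that start 3 bases apart and hold the same matches. The motif includes a CpG (C followed by G), and the windows with a match held 14 to 45 CpG. The median over all windows was 7, and the part of CpG content in the matches was not tested. A match is a description of the letters and not a binding site. The windows of Mest and Plagl1 are printed because these 2 paternally expressed genes differ below in which step of reprogramming lowered them. Matches are in capitals, as GCGGCA where the motif lies on the other strand.
Mest, chr6:30737800-30738099, plus strand: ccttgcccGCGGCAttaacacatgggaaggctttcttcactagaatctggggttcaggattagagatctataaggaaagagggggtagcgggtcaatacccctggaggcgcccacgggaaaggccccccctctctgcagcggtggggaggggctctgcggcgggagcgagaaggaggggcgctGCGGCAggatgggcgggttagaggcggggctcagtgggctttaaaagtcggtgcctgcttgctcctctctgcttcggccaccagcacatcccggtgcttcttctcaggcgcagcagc
Plagl1, chr10:13090582-13090881, plus strand: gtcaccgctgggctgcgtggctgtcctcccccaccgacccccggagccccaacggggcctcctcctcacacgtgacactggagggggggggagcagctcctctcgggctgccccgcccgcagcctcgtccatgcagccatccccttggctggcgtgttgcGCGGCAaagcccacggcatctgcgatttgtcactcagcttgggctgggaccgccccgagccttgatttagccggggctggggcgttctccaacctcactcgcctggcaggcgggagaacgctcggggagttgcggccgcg

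Library totals lay between 3953297 and 6818060 counts. Levels are given as CPM, expected counts scaled to library size with TMM factors. A gene with no count could still lie at up to 3 counts, which is at most 0.759 CPM in these libraries. Such limits and the intervals below cover counting error only. The ESC libraries stood apart from each other: 12 fibroblast marker genes summed to 10130 CPM in ESC 0822 and to 89.6 CPM in ESC 0819, against 31280 to 33460 CPM in MEF, while Nanog, a marker of pluripotent cells, was at 518 and 620 CPM. Each ESC library is therefore given apart. In the reprogramming cells, libraries of the same number deviated together within a day, so pairs of libraries of 1 number, virus and day are compared beside the fit.

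In untreated MEF, H19 and Igf2 were the most abundant of the 10 RNAs per length. H19 was at 3648 CPM in MEF 0824 and at 7418 CPM in MEF 0826, and Igf2 at 3688 and 6312 CPM. On the TPM scale, which corrects for transcript length, H19 was at 5407 ± 2560 (SD, n = 2), Igf2 at 3565 ± 1383 and Grb10, the next, at 611 on average. The order below these was Igf2r (190 TPM), Ndn (131), Cdkn1c (90.1), Mest (89.0), Peg3 (84.8), Plagl1 (55.4) and Peg10 (26.6). H19 and Igf2 overlapped in their values, as did Cdkn1c, Mest and Peg3, so the order among those neighbours is not resolved.

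At day 3 of reprogramming, the RNAs of most of these genes were lower than in MEF, and H19 and Igf2 were lower by more than an order of magnitude. H19 ranged from 58.7 to 270 CPM over the 12 libraries of that day, with a median of 158 CPM. Igf2 ranged from 24.7 to 221 CPM, with a median of 91.2 CPM. No day 3 library reached either MEF library for these RNAs. The mean of the 12 libraries lay 35.7-fold below MEF for H19 (log2 fold change -5.27 ± 0.74, SE, adjusted p = 2.4e-05) and 44.1-fold below for Igf2 (-5.51 ± 0.86, adjusted p = 6.9e-05) by edgeR's quasi-likelihood test with Benjamini-Hochberg adjustment over all genes tested. In bulk RNA, fewer cells of a type and less RNA per cell cannot be told apart.

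**Figure D1:**
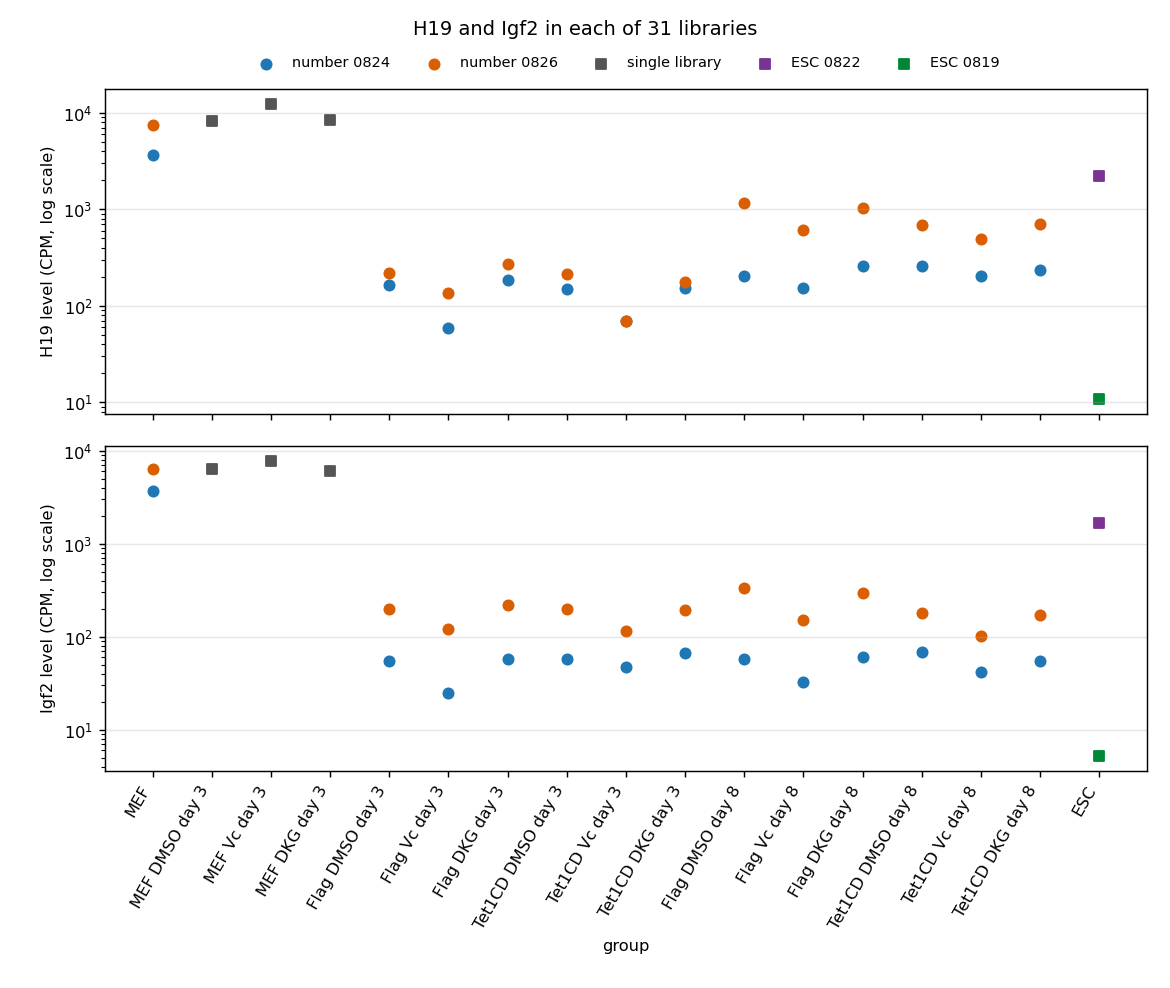
H19 (top) and Igf2 (bottom) in each of the 31 libraries, as CPM on a log axis, by group. Points are libraries, coloured by number, and squares mark the single MEF libraries and the ESC libraries. The 12 day 3 libraries lie between 58.7 and 270 CPM for H19, far below MEF, and the ESC libraries lie on either side of all reprogramming libraries.

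In all, 7 of the 10 genes were lower at day 3 than in MEF and 0 were higher, where 21.7% of all genes tested were called lower, 20.1% higher and 41.8% in either direction. Besides H19 and Igf2 these were Igf2r (2.63-fold lower, adjusted p = 0.00158), Cdkn1c (4.35-fold, 0.00775), Peg3 (3.80-fold, 0.000116), Mest (4.46-fold, 0.0081) and Ndn (3.19-fold, 7e-05, each by edgeR). They include 3 of the 4 maternally and 4 of the 6 paternally expressed genes. Peg10, a gene derived from a retrotransposon and needed in the placenta, was at 55.1 CPM at day 3 and 61.7 CPM in MEF on average (log2 fold change -0.17 ± 0.37), and its libraries overlapped. Plagl1, a zinc finger transcription factor known to act on other imprinted genes, was at 159 against 121 CPM (0.38 ± 0.33), also with overlap. Grb10 was at 1216 against 1664 CPM (-0.46 ± 0.34), and its 12 day 3 libraries all lay below both MEF libraries. Without both ESC libraries in the fit, an alternative chosen after seeing the data, Grb10 was called lower as well (adjusted p = 0.00283 by edgeR), which made 8 of 10 genes where 25.1% of all genes were lower. Without MEF 0826, Cdkn1c and Mest were no longer called, which left 5 genes (background 14.4%). With the number as a block within each day, the same 7 genes were lower and Plagl1 was higher (adjusted p = 0.0478 by edgeR), 8 of 10 genes where 53.3% of all genes were called. With that block and without the ESC libraries, 8 were lower and Plagl1 was higher (0.34 ± 0.12, adjusted p = 0.0189 by edgeR), where 31.7% and 33.1% of all genes were. The median log2 fold change of the 10 genes was -1.81, against 0.05 over all genes tested.

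Fibroblast RNAs were lower at day 3 too. The 12 fibroblast markers summed to between 2818 and 6644 CPM in the 12 day 3 libraries, against 31280 to 33460 CPM in MEF, with no marker at 0. The sum of 8 macrophage markers was 2261 CPM in MEF 0824 and 482 CPM in MEF 0826, and lay between 8.80 and 67.1 CPM at day 3. The part of these changes in the result was not tested. In the single libraries of MEF kept 3 days in culture without factors, H19 was at 8260 CPM with DMSO, 12400 CPM with Vc and 8327 CPM with DKG. These values lie 43.4-, 128- and 36.7-fold above the mean of the Flag cells of day 3 with the same additive, as the treatment field names it. Igf2 was at 6298, 7813 and 6092 CPM in the same libraries. With 1 library a group these differences have no replicate check.

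Between day 3 and day 8, H19 and Cdkn1c rose while Igf2 did not pass the test. At day 8 H19 ranged from 154 to 1164 CPM over 12 libraries with a median of 377 CPM, 3.24-fold above day 3 on average (log2 fold change 1.76 ± 0.52, adjusted p = 0.0192 by edgeR). It was higher at day 8 in 12 of 12 pairs of the same number, virus and additive. Differences between the numbers correlated at only -0.008 to 0.178 across days. Pairs across days, here and below, are thus matched by label and are not independent. Cdkn1c, which ranged from 15.7 to 26.2 CPM at day 3 with a median of 20.4 CPM, ranged from 19.6 to 119 CPM at day 8 with a median of 50.9 CPM (1.46 ± 0.38, adjusted p = 0.00915 by edgeR). Igf2 remained at 32.8 to 335 CPM with a median of 84.9 CPM (0.14 ± 0.59, adjusted p = 0.91 by edgeR), higher in 7 of 12 pairs. H19 and Igf2 thus differed in how many pairs rose, and the difference between them was not tested.

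For H19 and Cdkn1c, the day 8 over day 3 ratio was higher in the libraries numbered 0826. H19 was 3.16- to 7.13-fold higher at day 8 than at day 3 in the 6 pairs of 0826, and 1.26- to 2.95-fold higher in the 6 pairs of 0824. For Cdkn1c the ratio was 3.24 to 5.95 in 0826 and 0.868 to 1.62 in 0824, where 4 of 6 pairs were higher. At day 8 itself, H19 was at 154 to 261 CPM in the 0824 libraries and at 494 to 1164 CPM in the 0826 libraries, with no overlap. Cdkn1c (19.6 to 35.8 against 66.0 to 119 CPM), Igf2 (32.8 to 68.7 against 101.0 to 335 CPM) and Mest (10.3 to 23.4 against 44.1 to 84.2 CPM) separated in the same way. Peg10 went the other way, with 0826 at 0.456 to 0.79 of 0824 in 6 of 6 groups of day 8. The sum of the fibroblast markers also separated by number at day 8, at 2443 to 3879 CPM in the 0824 libraries and 5208 to 7578 CPM in the 0826 libraries, and its part in these differences was not tested. The labels do not say what the numbers stand for.

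Peg3 and Plagl1 fell between the days. Plagl1 ranged from 93.5 to 218 CPM at day 3 with a median of 143 CPM and from 38.3 to 109 CPM at day 8 with a median of 69.3 CPM (log2 fold change -1.13 ± 0.18, adjusted p = 0.000179 by edgeR). It was lower at day 8 in 12 of 12 pairs, by a ratio of 0.252 to 0.724. Peg3, a zinc finger protein, fell from a mean of 101.4 to 66.3 CPM (-0.61 ± 0.20, adjusted p = 0.0348 by edgeR), also in 12 of 12 pairs. Igf2r was lower in 12 of 12 pairs too, and its value did not pass the test (-0.43 ± 0.19, adjusted p = 0.105 by edgeR). Thus 2 of the 10 genes rose and 2 fell, where 14.4% and 10.7% of all genes were called higher and lower (25.1% in all). With the number as a block within each day and without the ESC libraries, 3 were higher and 5 lower (backgrounds 27.1% and 27.2%), the added calls being Mest (0.38 ± 0.13) and Igf2r (-0.46 ± 0.04), Grb10 (-0.14 ± 0.04) and Ndn (-0.33 ± 0.07). The numbers differed for Mest, which was higher at day 8 in 2 of 6 pairs of 0824 (ratio 0.474 to 1.96). In 0826 it was higher in 6 of 6 pairs (1.61 to 1.97). The sum of the fibroblast markers gave a median day 8 over day 3 ratio of 0.91, between 0.551 and 1.25 in the 12 pairs. That sum was lower at day 8 in 8 of 12 pairs. Thy1, which is 1 of the markers, was higher at day 8 in 11 of 12 pairs, with a median ratio of 1.53 (1.41 to 2.78 in 0826). Col1a1, another of them, was higher in 6 of 12 pairs and lower in 6, with a median ratio of 1.02. The sum of 7 genes listed as trophoblast markers was 7.56 to 44.1 CPM at day 3 and 38.3 to 219 CPM at day 8. These were Cdx2, Elf5, Tfap2c, Gata3, Hand1, Krt8 and Krt18. The part of these RNAs in the changes between the days was not tested.

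**Figure D2:**
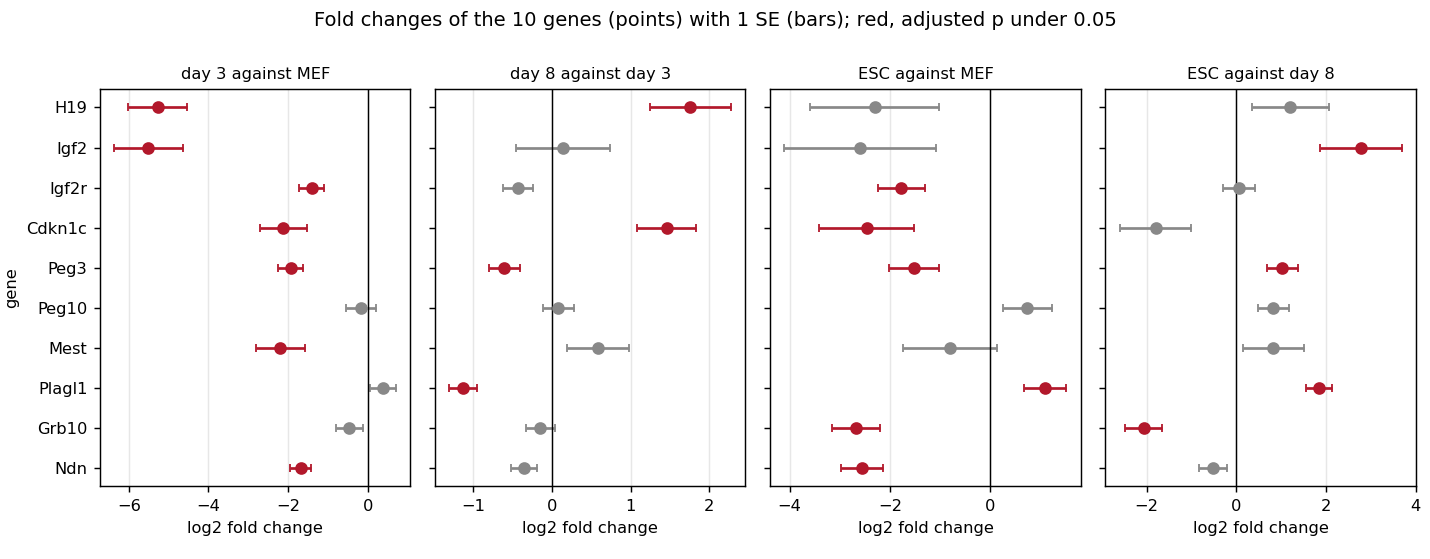
Log2 fold changes of the 10 genes in 4 comparisons, with bars of 1 SE from edgeR's quasi-likelihood test. Red points passed an adjusted p of 0.05. In the day 3 against MEF panel, 7 genes lie to the left of 0 in red, and the widest bars are those of H19 and Igf2 in the ESC panels.

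The ESC libraries disagreed on H19 and Igf2 by more than 200-fold. H19 was at 2226 CPM in ESC 0822 and at 10.9 CPM in ESC 0819, a ratio of 204. Igf2 was at 1656 and 5.25 CPM, a ratio of 315. The low values rest on 56 and 27 counts, with 95% exact binomial intervals of 8.23 to 14.1 CPM and 3.46 to 7.64 CPM. ESC 0822 was above all 24 reprogramming libraries for H19 and Igf2, and ESC 0819 below all of them.

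Fibroblast RNAs differed between the ESC libraries in the same direction. In ESC 0822, H19 was at 40.2% and Igf2 at 33.1% of the MEF mean, Thy1 at 31.9%, Col1a1 at 30.6% and the sum of the 12 fibroblast markers at 31.3%. In ESC 0819, H19 was at 0.197% and Igf2 at 0.105%, Thy1 at 0.101%, Col1a1 at 0.202% and the sum at 0.277%. No fibroblast marker was at 0 in either library. The part of fibroblast RNA in the difference was not tested. Since the deposited file names carry the numbers 0822 and 0819 the other way round from the titles, which of the libraries is of passage 17 and which of passage 19 is uncertain.

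Other members followed the same order with smaller ratios. Cdkn1c was at 31.4 CPM in ESC 0822 and at 1.56 CPM in ESC 0819 (8 counts, interval 0.672 to 3.07 CPM), and Grb10 at 453 and 67.1 CPM. Ndn, which encodes necdin, a MAGE family protein of neurons, was at 30.0 and 8.95 CPM, Peg3 at 202 and 67.3 CPM, Mest at 100.3 and 38.7 CPM and Igf2r at 365 and 178 CPM. Peg10 was the exception, with 44.3 CPM in ESC 0822 and 161 CPM in ESC 0819. Plagl1 was nearly alike, with 275 and 241 CPM. It exceeded both MEF libraries (137 and 105 CPM) and each of the 24 reprogramming libraries in both ESC libraries. Grb10 was below all of them in both.

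**Figure D3:**
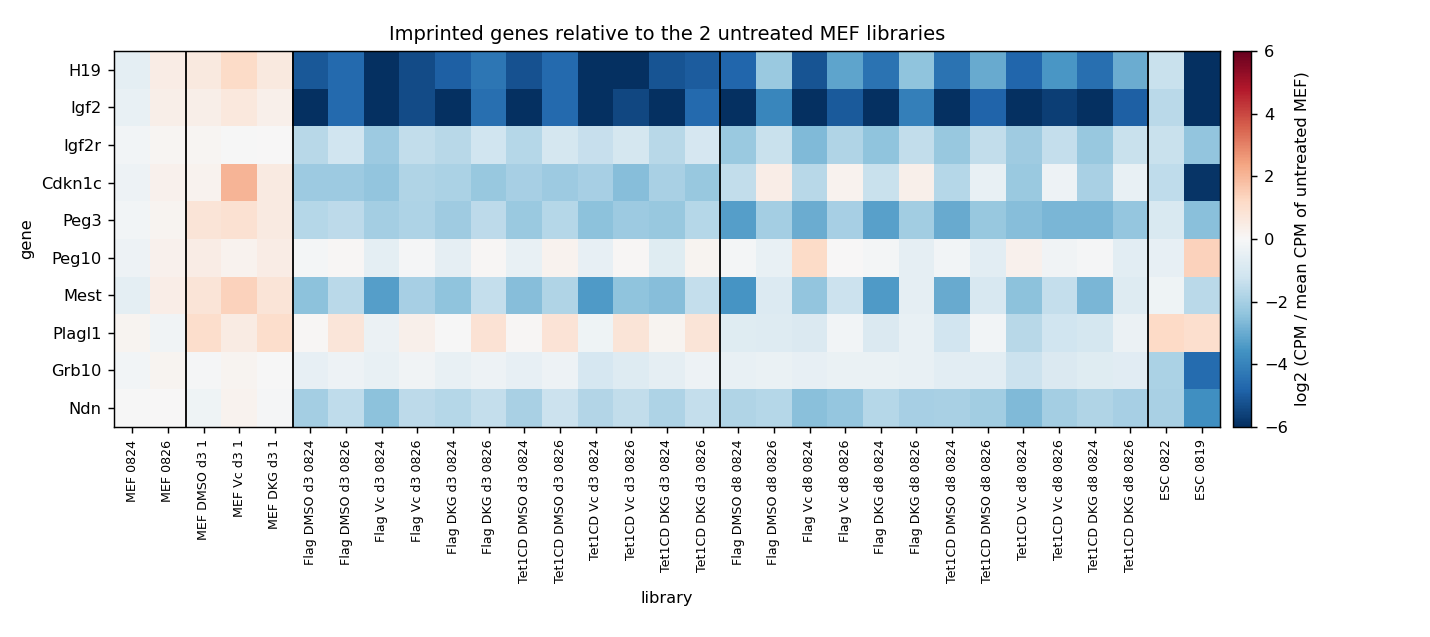
The 10 genes (rows) in the 31 libraries (columns), as the log2 ratio of CPM to the mean of the 2 untreated MEF libraries. Blue is lower and red higher than MEF, and vertical lines separate untreated MEF, single MEF libraries, day 3, day 8 and ESC. H19 and Igf2 are blue from day 3 on, palest in ESC 0822, and H19 is also paler in the day 8 libraries numbered 0826. Plagl1 is red in both ESC libraries.

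Against MEF, 5 genes were lower in ESC (Igf2r, Cdkn1c, Peg3, Grb10 and Ndn) and Plagl1 was higher, where 25.7% of all genes tested were lower and 26.8% higher (52.4% in all). Grb10 fell 6.40-fold on average (log2 fold change -2.68 ± 0.49, adjusted p = 0.00026 by edgeR), and Ndn 5.87-fold (-2.55 ± 0.42, adjusted p = 9.8e-05). Plagl1 was 2.14-fold higher (1.10 ± 0.43, adjusted p = 0.0387). H19 (-2.31 ± 1.29, adjusted p = 0.141) and Igf2 (-2.59 ± 1.52, adjusted p = 0.159) did not pass by edgeR, although both were below both MEF libraries in each ESC library. Grb10 and Ndn were called whichever ESC or MEF library was left out, and the other calls depended on the libraries kept. Without ESC 0822, 7 genes were lower and Peg10 was higher (backgrounds 27.0% and 29.1%). H19 at -9.00 (adjusted p = 0.000174) and Igf2 at -9.90 (0.00128) were then among the lower genes by edgeR, and Plagl1 did not pass (0.109). Without ESC 0819, only Grb10 (-1.88) and Ndn (-1.93) were called lower and 0 higher (backgrounds 17.3% and 20.4%). Without MEF 0824, 4 were lower (Igf2r, Peg3, Grb10 and Ndn, background 17.7%), and without MEF 0826, 3 (Igf2r, Grb10 and Ndn, background 19.6%).

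Against the day 8 cells, the direction for H19 and Igf2 turned with the ESC library. With both, Igf2 was higher in ESC (log2 fold change 2.78 ± 0.91, adjusted p = 0.0162), as were Peg3 (1.03 ± 0.34, 0.0187) and Plagl1 (1.85 ± 0.28, 3.2e-05), and Grb10 was lower (-2.07 ± 0.41, 0.000451, all by edgeR). That made 3 higher and 1 lower, where 27.6% and 24.3% of all genes were called (52.0% in all). Without ESC 0822, H19 (-5.49, adjusted p = 0.00225) and Igf2 (-4.54, 0.036) were lower in ESC than at day 8, as were Cdkn1c, Grb10 and Ndn, and Peg10 and Plagl1 were higher (backgrounds 26.7% and 28.7%). Without ESC 0819, H19 (2.20, 0.0183), Igf2 (3.77, 0.00139), Peg3 and Plagl1 were higher and Grb10 was lower (backgrounds 18.9% and 16.2%). Plagl1 stayed higher and Grb10 lower in ESC without either library, with adjusted p between 4.7e-10 and 0.000928 by edgeR.

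With Vc, H19 and Igf2 were lower than with DMSO in 8 of 8 library pairs each. At day 3, H19 was at 58.7 and 135 CPM with Vc against 163 and 217 CPM with DMSO in Flag cells, for the numbers 0824 and 0826. In Tet1CD cells of that day it was at 69.4 and 69.2 CPM against 148 and 215 CPM. The 4 Vc libraries did not overlap the 4 DMSO libraries. At day 8, H19 was at 154 and 614 CPM against 206 and 1164 CPM in Flag cells, and at 205 and 494 CPM against 257 and 679 CPM in Tet1CD cells, and the groups overlapped because the numbers lay so far apart. The ratio within pairs was 0.322 to 0.621 at day 3 and 0.528 to 0.797 at day 8.

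Igf2 values were also lower with Vc in each pair. In Flag cells it was at 24.7 and 123 CPM against 54.6 and 200 CPM at day 3, and at 32.8 and 152 CPM against 57.8 and 335 CPM at day 8. In Tet1CD cells it was at 46.8 and 115 CPM against 57.9 and 198 CPM at day 3, and at 41.6 and 101.0 CPM against 68.7 and 180 CPM at day 8. The ratio within pairs lay between 0.452 and 0.809 over both days.

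None of the 10 genes passed the test of Vc against DMSO in the fit with all libraries and no number term. At day 3 the log2 fold changes were -1.18 ± 0.89 for H19 and -0.73 ± 1.04 for Igf2, and at day 8 they were -0.63 ± 0.88 and -0.94 ± 1.04, with adjusted p of 1.0 by edgeR. The number of genes called was 0 of 10 on both days, where 0.121% (day 3, all of them higher) and 0.201% (day 8, 0.181% higher and 0.0201% lower) of all genes were called, 0 of the 10 had an unadjusted p under 0.05, and DESeq2 called 0. With the number as a block within each day and without the ESC libraries, an alternative chosen after seeing the data, H19 (-1.19 ± 0.18, adjusted p = 0.000494) and Igf2 (-0.71 ± 0.18, 0.0336) were lower at day 3 by edgeR, 2 of 10 genes where 0.981% of all genes were lower and 1.84% higher. At day 8, H19 (-0.55 ± 0.16, 0.0403), Igf2 (-0.91 ± 0.17, 0.00278), Grb10 (-0.22 ± 0.06, 0.0322) and Ndn (-0.48 ± 0.13, 0.0318) were lower, where 3.24% of all genes were. With either change alone the count over both viruses stayed at 0. Within Flag cells of day 3, the SE for H19 was 1.256 without the block and 1.083 with it. It was 0.2446 with the block and without the ESC libraries. For Igf2 the SE was 1.465, 1.13 and 0.2467 in the same order.

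Peg10 was the gene that rose with Vc at day 8 in that block fit (0.67 ± 0.12, adjusted p = 0.00126 by edgeR, background 5.28%). It was higher with Vc in 4 of 4 pairs of day 8, by 1.32- to 2.41-fold, and lower in 4 of 4 pairs of day 3, by a ratio of 0.718 to 0.984. Its value of 137 CPM in the Flag library 0824 with Vc was the highest of the 24 reprogramming libraries. Mest was lower with Vc in 4 of 4 pairs of day 3 (0.558 to 0.77) and in 2 of 4 of day 8. Plagl1 was lower in 7 of 8 pairs, between 0.478 and 1.5. Cdkn1c, Grb10 and Ndn were lower in 6 of 8 pairs each and Peg3 in 5. Igf2r was lower in the 4 Flag pairs (0.702 to 0.823) and higher in the 4 Tet1CD pairs (1.01 to 1.23).

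Tested within each virus, in the block fit without the ESC libraries, Vc gave calls for different members. H19 and Igf2 nevertheless had negative values in both viruses on both days. H19 in Flag cells of day 3 (-1.02 ± 0.24, adjusted p = 0.0611 by edgeR) fell just short of a call. So did Igf2 in Tet1CD cells of day 8 (-0.81 ± 0.25, adjusted p = 0.0524 by edgeR). In Flag cells of day 8, Igf2 (-1.001 ± 0.24, adjusted p = 0.0404 by edgeR) and Igf2r (-0.46 ± 0.09, 0.0154) were lower, where 0.501% of all genes were, and Peg10 (0.93 ± 0.16, 0.00498) was higher, where 1.27% were. In Tet1CD cells, H19 (-1.35 ± 0.25, 0.00467) and Grb10 (-0.47 ± 0.09, 0.00409) were lower at day 3 (background 0.397%). Grb10 (-0.41 ± 0.09, 0.00661) and Plagl1 (-0.82 ± 0.17, 0.00636) were lower there at day 8 (background 2.55%). In Flag cells Grb10 was at 0.06 ± 0.09 at day 3 and -0.03 ± 0.09 at day 8, and 0 of 10 genes were lower at day 3 (background 0.411%). Plagl1 in Tet1CD cells of day 8 was also called with the block within each day and all libraries (adjusted p = 0.0465 by edgeR, background 0.201%). The difference between the viruses itself did not pass for any of these in the same fit. It had an adjusted p by edgeR of 0.0747 (day 3) and 0.307 (day 8) for Grb10, 0.0887 and 0.137 for Igf2r, and 0.144 for Plagl1 at day 8.

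The sum of the fibroblast markers was lower with Vc in 8 of 8 pairs, at 0.669 to 0.906 of DMSO at day 3 and 0.64 to 0.885 at day 8. Macrophage markers summed to 890 CPM in the day 8 Tet1CD library 0824 with Vc and to 11.9 CPM in its DMSO pair. In the other 3 pairs of day 8, without that library, the H19 ratio was 0.747, 0.528 and 0.726 and the Igf2 ratio 0.567, 0.453 and 0.561. The part of these RNAs in the lower H19 and Igf2 was not tested. In the single MEF libraries, without factors, H19 was 1.5-fold and Igf2 1.24-fold higher with Vc than with DMSO. The fibroblast markers summed to 48160 CPM with Vc and 38780 CPM with DMSO in these libraries.

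**Figure D4:**
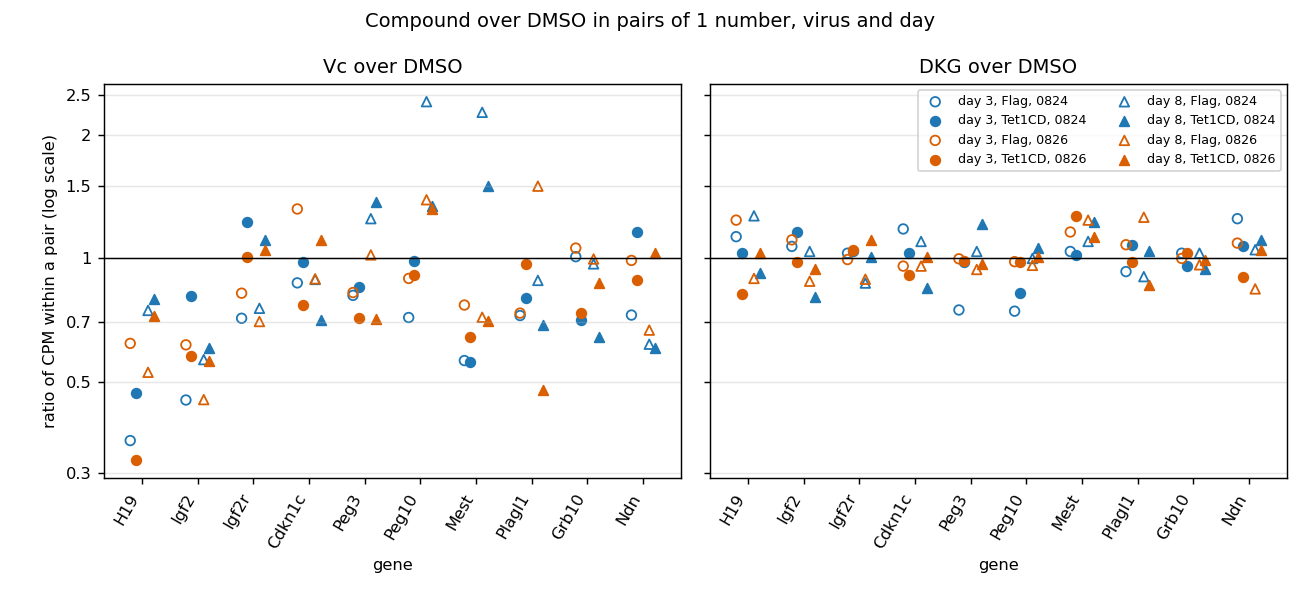
Ratio of CPM with Vc (left) or DKG (right) to CPM with DMSO in the library of the same number, virus and day, on a log axis, for the 10 genes. Circles are day 3, triangles day 8, open symbols Flag and filled symbols Tet1CD. The 8 Vc points of H19 lie between 0.322 and 0.797 and those of Igf2 between 0.452 and 0.809, while the DKG points of H19 lie between 0.821 and 1.27.

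DKG left no call among the 10 genes over both viruses and days. H19 was at 378 CPM with DKG and at 381 CPM with DMSO on average (log2 fold change 0.01 ± 0.62), and Igf2 at 140 and 144 CPM (-0.03 ± 0.72). Mest was higher with DKG in 8 of 8 pairs, by 1.02- to 1.27-fold (0.23 ± 0.48, adjusted p = 1.0 by edgeR). By edgeR 0 of 10 genes were called, 0 had an unadjusted p under 0.05 and DESeq2 called 0. Of all 14914 genes tested, 0.0% were called and 65 had an unadjusted p under 0.05. That is fewer genes than a threshold of 0.05 would pass with no effect at all. The test was thus strict, and 0 of 10 does not show that DKG had no effect. The tests of Vc and of Tet1CD above and below used the same fit.

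No member passed the test of Tet1CD against Flag in the fit with all libraries. The library values of Tet1, the dioxygenase gene named by the virus, were 5.55 to 15.4 CPM in Flag cells and 429 to 687 CPM in Tet1CD cells at day 3. At day 8 they were 4.38 to 32.6 CPM and 184 to 624 CPM. Grb10 was lower with Tet1CD in 6 of 6 pairs of day 8, at 690 to 1074 CPM against 1168 to 1281 CPM, with no overlap (log2 fold change -0.36 ± 0.26, adjusted p = 0.658 by edgeR). Cdkn1c was lower in 6 of 6 pairs of that day, by a ratio of 0.557 to 0.852 (-0.65 ± 0.52, adjusted p = 0.704). There 0 of 10 genes were called at either day, where 0.697% (day 3, 0.677% higher and 0.0201% lower) and 1.76% (day 8, 1.53% higher and 0.235% lower) of all genes were, 0 had an unadjusted p under 0.05 and DESeq2 called 0.

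The sum of 12 pluripotency markers was lower with Tet1CD in 6 of 6 pairs on each day. It was at 0.666 to 0.885 of Flag at day 3 and 0.569 to 0.936 at day 8. These 12 include Pou5f1 and Sox2, which are also among the OKSM factors. Pou5f1 alone was at 858 to 1814 CPM in Flag cells of day 3, where the sum was 1299 to 2939 CPM. Macrophage markers were at 1.55 to 7.62 times Flag at day 3 and 0.774 to 94.5 times at day 8. Fibroblast markers were higher in 6 of 6 pairs of day 3, at 1.09 to 1.57 times Flag, and were at 0.809 to 1.04 times at day 8. The part of these RNAs in the values of the members was not tested. Without the ESC libraries, Grb10 passed at day 8 (-0.36, adjusted p = 0.0362 by edgeR, background 0.661% lower). With the block within each day added, Grb10 (-0.36 ± 0.05, 5.5e-05), Cdkn1c (-0.59 ± 0.10, 0.000437) and Plagl1 (-0.30 ± 0.10, 0.0295) were lower and Igf2r (0.18 ± 0.05, 0.0254) higher at day 8, where 11.4% and 11.2% of all genes were. At day 3, Grb10 was lower (-0.20 ± 0.05, 0.0112) and Igf2r higher (0.26 ± 0.05, 0.00309), with backgrounds of 6.01% and 9.7%. The interaction of Tet1CD with Vc was called for 0 of 10 genes on either day (0.101% and 0.0201% of all genes), with 0 at an unadjusted p under 0.05 and 0 by DESeq2, and also in the block fit without the ESC libraries.

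Neighbours of these genes on the chromosome gave mixed values. Igf2os, which is transcribed antisense to Igf2, fell from 13.4 CPM in MEF to 0.44 CPM at day 3, a mean below the 3-count level of a library, and Zim1, next to Peg3, fell from 14.3 to 0.932 CPM. Sgce, which starts beside Peg10 and is paternally expressed like it, fell (log2 fold change -1.84 ± 0.33, adjusted p = 0.000279 by edgeR), while Peg10 did not pass. Copg2, which overlaps the end of Mest, was at 58.1 against 49.6 CPM (0.22 ± 0.26), whereas Mest fell. Airn, which runs antisense through Igf2r, was at 2.96 against 6.99 CPM (-1.27 ± 0.58, adjusted p = 0.0917). Kcnq1ot1, the antisense RNA of the domain that holds Cdkn1c, rose (0.68 ± 0.22, adjusted p = 0.0187), and Ddc, beside Grb10, rose by 3.02 ± 0.42. The library kit is not described as keeping strand, so reads of overlapping genes cannot be told apart.

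Among 47 other imprinted genes found in the tables, 36 were tested. At day 3, 13 were lower and 6 higher than in MEF, where 21.7% and 20.1% of all genes were, with a median log2 fold change of -0.16. Those with the largest changes were Igf2os, Tfpi2 (8.997 against 0.338 CPM) and Zim1, each lower at day 3. Between day 3 and day 8, 6 rose and 4 fell (14.4% and 10.7% of all genes), led by changes of Dlk1 (4.31-fold higher) and Mirg (3.01-fold higher), of the Dlk1-Dio3 domain, and by Slc38a4, an amino acid transporter, which fell 2.31-fold. In ESC against MEF, 11 were higher and 10 lower, near the 26.8% and 25.7% of all genes, led by Usp29 (4.04 against 0.107 CPM, the latter below the 3-count level) and Ascl2 (3.35 against 0.215 CPM), with Ddc at 26.6 CPM in ESC 0822 and 97.4 CPM in ESC 0819 against 4.37 CPM in MEF.

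Of 17 tested genes of IGF signalling, 7 were lower and 1 higher at day 3 than in MEF, where 21.7% and 20.1% of all genes were. Igfbp5, a binding protein for IGFs, fell 35.6-fold from 566 to 15.9 CPM, and Pappa, a protease that cleaves such binding proteins, fell 12.4-fold. At day 8, 5 were higher and 2 lower than at day 3 (14.4% and 10.7% of all genes), and Igfbp2 rose 5.99-fold, from 8.78 to 52.6 CPM. In ESC, 3 were higher and 9 lower than in MEF (26.8% and 25.7% of all genes). Igf2bp1, which binds Igf2 mRNA, was at 410 and 412 CPM in the ESC libraries against 42.3 CPM at day 8. This gene hardly differed between the ESC libraries, whereas Igfbp5 was at 340 CPM in ESC 0822 and 5.25 CPM in ESC 0819.

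Of 10 tested genes that keep or set imprints, 5 were higher at day 3 than in MEF and 0 lower, where 20.1% and 21.7% of all genes were, among them Uhrf1 (2.53-fold) and Dnmt1 (2.05-fold), which copy DNA methylation after replication. At day 8, 4 were higher and 1 lower than at day 3 (14.4% and 10.7% of all genes), and Zfp57 rose 1.78-fold, from 36.5 to 65.0 CPM. In ESC 8 were higher than in MEF and 0 lower (26.8% and 25.7% of all genes). Zfp57 was at 399 and 319 CPM there, and Dnmt3b, a de novo methyltransferase, was 63.8-fold above MEF. Dnmt3b (2.92-fold) and Uhrf1 (1.42-fold) were the 2 genes of this list that were higher with Tet1CD than with Flag at day 8 (adjusted p = 0.0388 and 0.0411 by edgeR, where 1.53% of all genes were higher).

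Across the 28 libraries of groups with replicates, the genes whose log2(CPM + 1) followed a member most closely were the following, given as descriptions without a test. H19 was followed by Postn (Pearson r = 0.978), itself among the fibroblast markers, Cxcl12 (0.972) and Ptn (0.963). Igf2 was followed by Dchs1 (0.975), Flt1 (0.971) and Ckap4 (0.957), and Cdkn1c by Cx3cl1 (0.952), Nab2 and Eln. Plagl1 was followed by Slc38a4 (0.934), an imprinted gene on another chromosome, and that value was 0.952 over the 24 reprogramming libraries alone. Within the members, H19 and Igf2 correlated at 0.901 over 28 libraries and at 0.666 over the 24, and H19 and Cdkn1c at 0.841 and 0.879. The libraries share their groups and numbers, so these points are not independent.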

How the data were processed

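Per the labels' protocols, Trizol was used for extraction and a TruSeq kit for libraries, starting with 1 ug of total RNA. The submitters' processing notes name Bowtie, RSEM and mm10; their versions and the annotation are not stated in the material used. Per the file headers, the authors deposited for each gene the RSEM expected count, TPM and FPKM; RSEM divides ambiguous reads by a model. Rounding of the deposited expected counts preceded testing, deposited TPM served for comparing genes and in 1 alternative, and deposited FPKM was not used. Of 29267 identifiers, 28756 matched GENCODE M21; the other 511 held at most 0.392% of a library's counts.

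The 28 libraries of 14 groups entered 1 edgeR quasi-likelihood fit (edgeR 4.0.16, limma 3.58.1, R 4.3.3; filterByExpr, TMM, a mean per group, no number term), two-sided, with Benjamini-Hochberg adjustment per comparison and a call at an adjusted p under 0.05. Each SE was obtained by dividing the absolute log2 fold change by the root of its F statistic. The fit was tested on simulated data with the same dispersion for all genes. These data held no difference between numbers or between ESC libraries, so that test does not cover such differences. Alternatives were a replicate block over or within days, DESeq2 (1.42.0) and its size factors, no filter, limma on log2(TPM + 1), leaving out libraries and, added after seeing the data, both ESC libraries with or without the block. Differences between 0826 and 0824 correlated at 0.356 to 0.504 between groups of day 3, 0.345 to 0.687 of day 8 and -0.008 to 0.178 across days, so the numbers pair libraries within a day. Members and lists were chosen with earlier results of these data known. Named were all 10 members, per list the 3 called genes with the largest change, and per member the 3 most correlated genes; neighbours, markers and further list genes were named in addition, some after their values were seen.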

Additional observations from a re-analysis of the deposited data

Results flagged for a closer look

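The single libraries of MEF kept for 3 days without factors lie outside the tested comparisons, and in several of them the imprinted genes exceeded both untreated MEF libraries. H19 was at 8260 CPM with DMSO, 12400 CPM with Vc and 8327 CPM with DKG, against 3648 and 7418 CPM in untreated MEF. Igf2 exceeded both untreated libraries with Vc, at 7813 CPM against 3688 and 6312 CPM. Cdkn1c was at 372 CPM with Vc and 134 CPM with DKG, against 73.9 and 108 CPM. The Vc value of Cdkn1c was 3.51 times that with DMSO.

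Peg3 was at 652, 733 and 562 CPM with DMSO, Vc and DKG, against 343 and 428 CPM in untreated MEF. Mest was at 205, 313 and 208 CPM, against 81.0 and 160 CPM. Plagl1 was at 254, 171 and 251 CPM, against 105 and 137 CPM. Peg10 was at 84.6 CPM with DMSO and 83.1 CPM with DKG, against 50.5 and 72.9 CPM. Grb10 (1860 CPM against 1491 and 1837) and Ndn (131 CPM against 113 and 116) exceeded both with Vc alone, and Ndn was below both with DMSO (96.0 CPM) and DKG (110.7 CPM). In all, 5 of the 10 genes exceeded both untreated libraries with DMSO, 8 with Vc and 6 with DKG, where 34.7%, 38.4% and 33.9% of all genes tested did. These single libraries were not tested, and the untreated MEF libraries are of day 0.

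Igf2r at day 8 was flagged because its DKG over DMSO ratios lay on opposite sides of 1 in the virus groups. In Flag cells the ratios were 0.871 (0824) and 0.89 (0826). In Tet1CD cells they were 1.01 (0824) and 1.11 (0826), with a median of 1.06, so the 0824 pair hardly differed. The difference was not tested.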

How the results depend on the processing

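Leaving out 1 library at a time gave 2 to 8 called genes in ESC against MEF, 5 to 7 in day 3 against MEF, 3 to 4 in day 8 against day 3, 4 to 7 in ESC against day 8, and 0 in the other 7 comparisons. A lone remaining library is then assumed to vary like the other groups. The replicate block over days gave 6, 7, 5 and 5 called genes in these 4 comparisons, where 58.0%, 47.0%, 30.4% and 57.2% of all genes were called, and 0 elsewhere. The block within each day gave 7 in ESC against day 8 (63.3%). The block within each day without both ESC libraries gave 8 in day 8 against day 3 (27.1% of all genes higher and 27.2% lower). For Vc it gave 2 at day 3 (1.84% and 0.981%) and 5 at day 8 (5.28% and 3.24%). For Tet1CD it gave 2 at day 3 (9.7% and 6.01%) and 4 at day 8 (11.2% and 11.4%). Without both ESC libraries alone, 1 gene was called for Tet1CD at day 8, as lower (0.661% of all genes). These alternatives without both ESC libraries were chosen after seeing the data and tested 14368 genes. The common dispersion was 0.0817 without a block and 0.0356 with the block within each day. In ESC against day 8, H19 ranged from -5.491 without ESC 0822 to 2.195 without ESC 0819, and Igf2 from -4.536 to 3.772. Of 422 alternative values for the 21 that had passed, 29 no longer passed and 1 reversed (Igf2). Of 1698 alternative values for those that had not passed, 49 passed in the same direction, 1 (H19) in the other, and 202 changed sign without passing. Over the 24 reprogramming libraries alone, 6 of the 30 most similar genes were shared. Rare RNAs are limited by depth: Cdkn1c in ESC 0819 rests on 8 counts. The causes of these shifts were not tested.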
